A study of Mus musculus with 288 samples.

Results

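Metabolic nuclear receptors are transcription factors that switch genes of fat, sugar, bile acid and drug metabolism on or off when a small molecule binds them. The members described here are 10 of the 35904 genes in the tables and were taken by name from the 12 tables of 6 tissues and 2 treatments. They are Ppara, Pparg and Ppard, which sense fatty acids, Rxra, the partner that most of them need to bind DNA, Nr1h3 (LXRα), which senses oxysterols, Nr1h4 (FXR), which senses bile acids, Nr1i2 (PXR) and Nr1i3 (CAR), which sense foreign compounds, Hnf4a, a master regulator of liver and kidney epithelial identity, and Thra, a receptor for thyroid hormone. RNA came from male C57BL/6J mice, 8 weeks old at the start of exposure, that carried no engineered allele in the labels. Before collection, mice of the normoxia group breathed room air for 7 days, while mice of the intermittent hypoxia (IH) group were exposed in the light phase to cycles between 21% and 8% oxygen. The organs sampled were cerebellum, heart, kidney, liver, lung and skeletal muscle. They were collected every 3 hours, at 8 labelled times from 1:30 to 22:30 on day 2 in constant darkness, with 3 libraries per time. That gives 24 libraries per tissue and treatment. The labels do not say whether these times are clock hours or count from another point of the day. Peaks below are given on the labelled scale. Both groups lived in constant darkness when sampled, so that neither is a group in a light and dark cycle, and the IH exposure had already ended.

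Members of this family share a DNA-binding domain and recognise copies of a short hexamer in regulated genes. The PPARs, LXR, FXR, PXR, CAR and thyroid hormone receptors bind these copies as pairs with an RXR, whereas HNF4α binds as a pair with itself. In liver, PPARα drives fatty acid oxidation in fasting, LXR drives lipogenesis and cholesterol removal, FXR restrains bile acid synthesis, PXR and CAR induce cytochromes P450 that clear drugs, and HNF4α keeps hepatocyte genes active. PPARγ is the main regulator of fat cell formation, PPARδ raises fatty acid use in muscle, and thyroid hormone sets metabolic rate and heart contraction genes. Several family members are known outputs of the circadian clock. The receptors are switched by ligands, so that the amount of RNA is not a measure of their activity.

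In the GRCm38 annotation the members lie on 8 chromosomes as separate protein-coding genes, with Rxra, Nr1h3 and Hnf4a all on chromosome 2. Thra (ENSMUSG00000058756, chr11:98740638-98769006, plus strand) shares 1075 bases, 263 of them exonic, with the clock gene Nr1d1 on the opposite strand. Nr1i3 (ENSMUSG00000005677, chr1:171213970-171220701, plus strand) shares 3304 exonic bases with Tomm40l on the opposite strand. Nr1h3 (ENSMUSG00000002108, chr2:91184061-91202834, minus strand) shares 34 exonic bases with Gm13783 on its own strand. The library kit marked strand, but whether the quantification used it is not given in the sources used here, so that reads in the shared bases of these genes may be assigned to either gene. The other members are Ppara (ENSMUSG00000022383, chr15:85734983-85802819, plus), Pparg (ENSMUSG00000000440, chr6:115360951-115490399, plus), Ppard (ENSMUSG00000002250, chr17:28232700-28301474, plus), Rxra (ENSMUSG00000015846, chr2:27676440-27762957, plus), Nr1i2 (ENSMUSG00000022809, chr16:38248323-38294824, minus), Nr1h4 (ENSMUSG00000047638, chr10:89454234-89533585, minus) and Hnf4a (ENSMUSG00000017950, chr2:163506808-163572910, plus).

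RefSeq promoters of the GRCm38.p6 build were found for 9 of the 10 members, Thra not among them, as 14 windows of 300 bases that end 50 bases after a transcription start. The 250 bases before the start are shown for 3 members that carry the patterns described further on, Ppard because it had the widest daily swing, Nr1i3 because it was the member most restricted to 1 tissue, and Nr1h4 because it was high in kidney and liver alone. These 3 were chosen after their values were seen. Capitals mark matches on either strand to CACGTG (the E-box bound by CLOCK and ARNTL), TTATGTAA (the D-box of the PAR bZIP factors), AGGTCA (the nuclear receptor hexamer), CCAAT (bound by NF-Y), GGGCGG (bound by Sp1) and TATAAA (the TATA box), each searched in full with no mismatch. No match of 1 motif overlaps that of another in the sequences shown.
Ppard, chr17:28232504-28232753, plus strand: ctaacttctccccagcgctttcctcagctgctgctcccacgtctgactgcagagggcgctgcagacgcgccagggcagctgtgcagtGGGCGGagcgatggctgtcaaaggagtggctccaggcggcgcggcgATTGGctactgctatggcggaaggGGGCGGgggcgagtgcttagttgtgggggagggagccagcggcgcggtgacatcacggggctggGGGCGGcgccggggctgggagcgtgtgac
Nr1i3, chr1:171213720-171213969, plus strand: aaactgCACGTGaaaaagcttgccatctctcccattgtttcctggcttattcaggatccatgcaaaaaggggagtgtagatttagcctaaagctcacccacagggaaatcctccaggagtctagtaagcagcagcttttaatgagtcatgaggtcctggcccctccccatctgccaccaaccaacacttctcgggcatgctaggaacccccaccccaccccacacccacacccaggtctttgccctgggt
Nr1h4, chr10:89506659-89506908, minus strand: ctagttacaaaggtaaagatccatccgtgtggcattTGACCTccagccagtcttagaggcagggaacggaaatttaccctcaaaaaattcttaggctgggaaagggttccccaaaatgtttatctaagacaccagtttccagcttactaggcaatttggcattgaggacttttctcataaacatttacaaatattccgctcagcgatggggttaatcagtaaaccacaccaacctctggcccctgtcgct
The Ppard promoter held GGGCGG at 163, 93 and 29 bases before the start and CCAAT, on the other strand, at 117 bases before it, with a GC content of 69.6%. In the Nr1i3 promoter the only match was CACGTG at 244 bases before the start, and in the Nr1h4 promoter AGGTCA, on the other strand, at 214 bases before it. Among all 32851 RefSeq promoters of the same length, 35.7% held GGGCGG, 37.4% CCAAT, 16.3% AGGTCA, 13.6% TATAAA, 7.15% CACGTG and 0.938% TTATGTAA. No window of a member held TTATGTAA. A match shows only that these letters are there.

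Each library summed to between 989211 and 999188 TPM (a level per length of transcript that is scaled to about the same sum in each library). No read counts were analysed here, so the depth behind each library's values is unknown and counting error cannot be given. Defining markers of the labelled tissue were present in all 6 tissues, with summed levels of 12 hepatocyte genes of 59133 to 105673 TPM in liver under normoxia and of 12 cardiomyocyte genes of 20277 to 48737 TPM in heart. The library labelled liver, IH, 13:30, replicate 2 stood apart. Its mean correlation with the other 47 liver libraries was 0.696, its hepatocyte sum was 1377 TPM against a median of 47849 TPM after IH, its cardiomyocyte sum was 10896 TPM, and the transcript Gm19220 made up 63.2% of its TPM. The library labelled cerebellum, IH, 1:30, replicate 3 stood apart in the same manner, with a mean correlation of 0.766 and a cardiomyocyte sum of 12663 TPM. Values without these libraries are given beside the results that they moved. The heart library of lowest correlation (normoxia, 7:30, replicate 3) had a mean correlation of 0.826 and a lung epithelium sum of 2045 TPM. Heart and lung also differed between treatments in how many genes were detected above 0 TPM, with medians of 24768.5 in normoxia and 21492 after IH in heart and 22690.5 and 24788.5 in lung. In heart the ranges did not overlap (22988 to 28331 in normoxia and 20316 to 22793 after IH), while in lung they did (21746 to 25400 and 23622 to 28284).

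All values below are TPM as deposited for levels between tissues, and TPM scaled by the median of ratios within a tissue for comparisons between treatments and times, with mean ± SD over n = 24 libraries unless another n is given. In whole tissue, fewer cells of a type and less RNA per cell cannot be told apart. Under normoxia the receptors fell into receptors found in every tissue (Ppara, Pparg, Ppard, Rxra, Nr1h3 and Thra) and receptors found in liver, or in liver and kidney (Nr1i2, Nr1i3, Nr1h4 and Hnf4a). Thra made up 87.6% of the summed TPM of the 10 members in cerebellum, 45.9% in lung, 45.1% in heart and 30.6% in muscle, whereas Hnf4a was the first of the 10 in kidney (45.7%) and liver (28.2%).

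**Figure D1:**
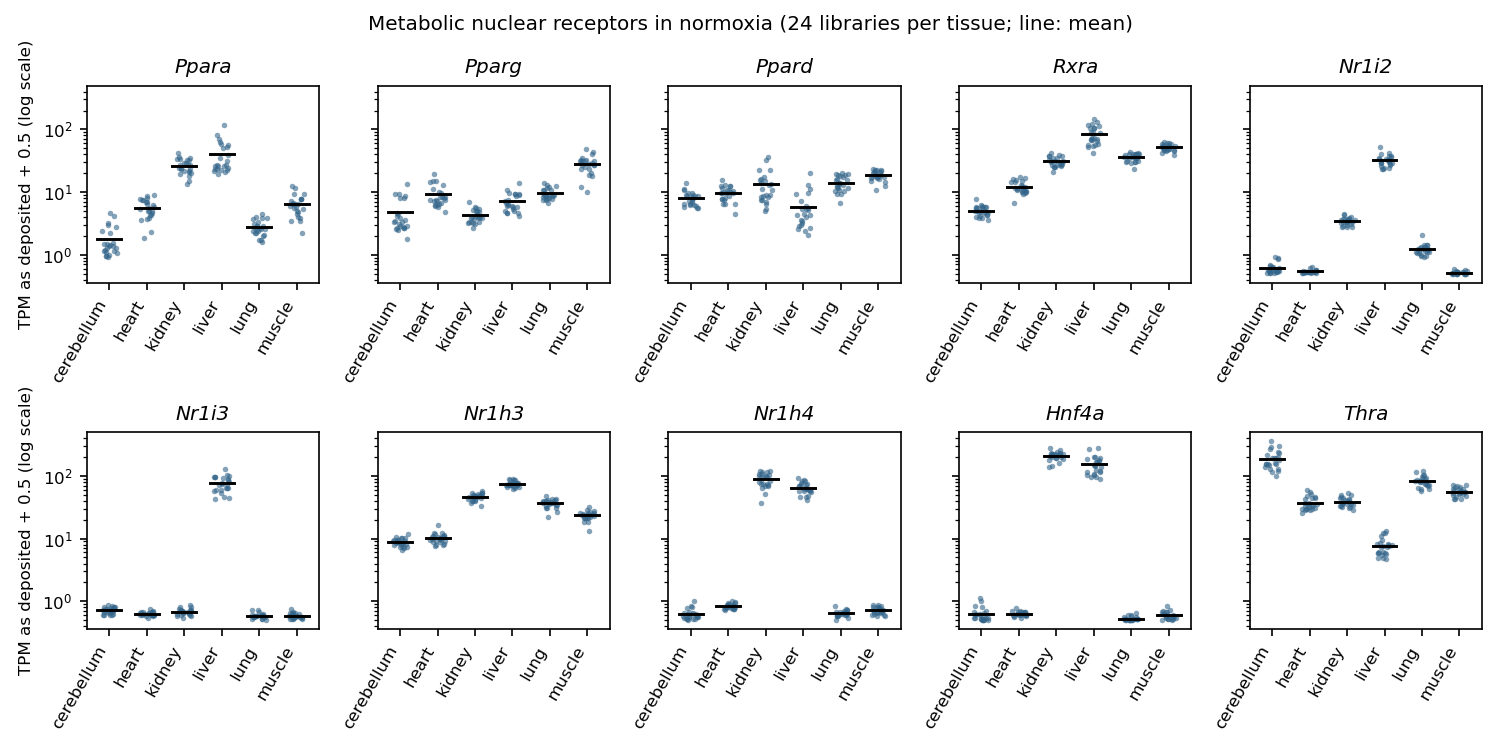
TPM as deposited plus 0.5, on a log axis, of the 10 receptors in each of 6 tissues under normoxia. Each point is 1 of 24 libraries and each line the mean. Nr1i3 sits between 42.1 and 128 TPM in liver with means of at most 0.216 TPM elsewhere, while Thra is highest in cerebellum and lowest in liver.

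Both foreign-compound sensors were highest in liver, and Nr1i3 was the member most restricted to 1 tissue. Nr1i3 had a level of 75.4 ± 21.6 TPM in liver (lowest library 42.1, median 73.9, highest 128) and means of 0.0884 to 0.216 TPM in the other 5 tissues. No other tissue overlapped with liver, whose mean was 349 times the next. Nr1i2 reached 31.6 ± 6.80 TPM in liver (lowest 22.49, median 30.9, highest 51.8), 2.96 ± 0.451 TPM in kidney and 0.717 ± 0.230 TPM in lung. In muscle Nr1i2 was listed at 0 in 9 of 24 libraries, with a mean of 0.0192 TPM. The PXR level thus fell in steps from liver to kidney to lung, each beyond the spread between libraries, while CAR dropped in a single step of 6.68 on the log2(TPM + 0.5) scale, and its other 5 tissues did not differ between neighbours in the order.

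Nr1h4 and Hnf4a were shared by kidney and liver. Nr1h4 had 87.5 ± 22.2 TPM in kidney (lowest 36.6, median 90.7, highest 121) and 64.0 ± 13.3 TPM in liver (lowest 40.5, median 60.5, highest 91.4). Hnf4a had 209 ± 32.8 TPM in kidney (lowest 137, median 213, highest 278) and 152 ± 51.5 TPM in liver (lowest 89.1, median 146, highest 281). For both genes the kidney and liver libraries overlapped, and the mean was higher in kidney, by 0.43 for Nr1h4 and 0.51 for Hnf4a in log2 (limma adjusted p = 1.03e-07 and 1.90e-09). This order turned when all libraries were scaled by the median of ratios, to -0.37 and -0.29. The step below liver was 6.25 for Nr1h4 and 7.84 for Hnf4a, and means in the other 4 tissues lay between 0.0304 and 0.335 TPM.

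The receptors found in every tissue differed in where they were highest. Ppara, the fatty acid oxidation receptor, had 39.7 ± 24.3 TPM in liver (lowest 19.3, median 26.4, highest 117) and 25.8 ± 7.12 TPM in kidney (lowest 13.2, median 25.1, highest 41.8), and the liver libraries spread from below to far above those of kidney. It was 0.47 higher in liver in log2 (adjusted p = 0.00673), but without replicate 3, where liver Ppara was highest, kidney minus liver was 0.042 (adjusted p = 0.851). From kidney it dropped by 2.09 to muscle, at 5.90 ± 2.51 TPM, which did not differ from heart at 5.15 ± 1.93 TPM (adjusted p = 0.339). Pparg was highest in muscle, at 27.7 ± 8.97 TPM (lowest 9.59, median 27.7, highest 47.9), and the mean in lung, the next tissue, was 9.03 ± 1.94 TPM. Pparg did not pass between lung and heart or between kidney and cerebellum. Pparg is a fat cell gene, and the summed level of 12 adipocyte markers was also highest in muscle of the 6 tissues, between 3450 and 16552 TPM under normoxia. The muscle library with the most Pparg of all 48 (IH, 16:30, replicate 2, 91.9 TPM) also had the most adipocyte marker RNA (25907 TPM, of which Adipoq 1312). Car3 on that list is also known as a gene of muscle fibres. The part of fat cells in the muscle level was not tested.

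Ppard had the flattest profile of the 10. Its means ran from 18.0 ± 3.35 TPM in muscle and 13.6 ± 3.78 TPM in lung through 12.9 ± 8.10 in kidney, 9.12 ± 2.52 in heart and 7.54 ± 2.11 in cerebellum to 5.38 ± 4.20 in liver, and no neighbours from lung to cerebellum differed beyond their spread. Its SD relative to its mean was large in kidney (lowest 4.48, highest 36.2 TPM) and liver (lowest 1.60, highest 19.6 TPM), the same organs in which it followed the time of day. Rxra was highest in liver (83.3 ± 28.1 TPM), followed by muscle (51.1 ± 6.34), lung (35.2 ± 4.90), kidney (30.2 ± 5.08), heart (11.7 ± 2.70) and cerebellum (4.57 ± 0.942), and each neighbour differed from the next. Nr1h3 went from 74.4 ± 7.90 TPM in liver to 45.6 ± 5.70 in kidney, 36.1 ± 5.58 in lung, 22.9 ± 3.71 in muscle, 9.74 ± 1.85 in heart and 8.28 ± 1.25 in cerebellum, again with each neighbour apart. Thra ran the other way, from 188 ± 65.8 TPM in cerebellum (lowest 97.3, median 167, highest 354) to 7.17 ± 2.41 TPM in liver (lowest 4.28, median 7.04, highest 12.5), with no overlap between these tissues.

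Over all 10 members, 131 of 150 pairs of a member and 2 tissues passed the limma test of levels, and 33 of 50 neighbours in the order did. Of all genes and pairs tested, 83.0% passed, so that the members are close to the background here. Libraries of different tissues were taken as independent although organs may come from the same mice, and this comparison rests on TPM as deposited. The order of some neighbours depended on scaling, as given for kidney and liver above and for other pairs in the closing section.

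The effect of IH on mean 24-hour expression was then compared within each tissue. A gene was tested where its mean over 48 libraries was at least 1 TPM, and it passed at an adjusted p of at most 0.05. That left 43 of 60 combinations of member and tissue. The 17 others were Nr1i2 in 4 tissues, Nr1i3 in 5, and Nr1h4 and Hnf4a in 4 each, all with means under 1 TPM in both treatments. Of the 43, 12 passed, 8 higher and 4 lower after IH, in 6 of the 10 members. None of the 43 combinations passed with a change of at least 1.5-fold (0 of 43, limma), against 4.26% of all genes and tissues together. P-values measure the spread between these libraries. In every comparison of the treatments the 2 groups overlapped.

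Counted by tissue, 4 of 6 members passed in heart (45.2% of all genes tested there passed), 4 of 6 in lung (70.4%), 2 of 6 in cerebellum (15%), 1 of 9 in kidney (19.8%), 1 of 10 in liver (24.2%) and 0 of 6 in muscle (10.4%). In muscle limma gave an unadjusted p under 0.05 for 3 members. The median change of the members tested, beside that of all genes, was 0.28 and 0.04 in heart, 0.20 and -0.01 in cerebellum, 0.11 and -0.00 in muscle, 0.04 and -0.08 in lung, -0.06 and -0.01 in kidney and -0.11 and -0.01 in liver, on the log2 scale. In lung and heart a large share of all genes passed as well, so that the members are to be read against that background.

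**Figure D2:**
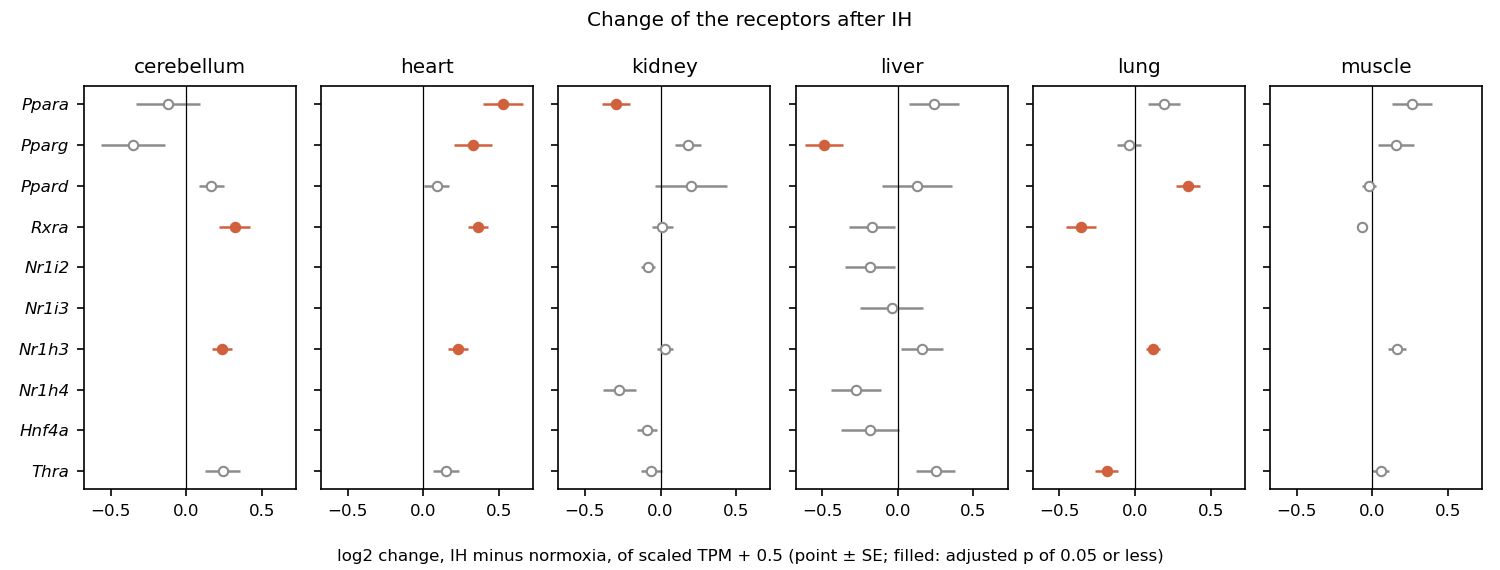
Change of each receptor after IH, as log2(scaled TPM + 0.5) of IH minus normoxia with its standard error, in the tissues where its mean was at least 1 TPM (24 libraries per treatment). Filled points passed at an adjusted p of at most 0.05. The filled points lie between -0.49 (Pparg in liver) and 0.53 (Ppara in heart).

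In heart, 4 receptors of fat and sterol metabolism were higher after IH. Ppara went from 5.29 ± 1.78 scaled TPM (lowest 1.80, median 5.54, highest 7.92) to 7.74 ± 2.43 (lowest 4.41, median 7.37, highest 12.2), a log2 change of 0.53 ± 0.13 (SE, adjusted p = 0.00138), and was higher at 8 of 8 times. Rxra went from 12.1 ± 2.04 (lowest 6.94, median 12.4, highest 15.4) to 15.6 ± 2.08 (lowest 12.3, median 14.9, highest 19.3), a change of 0.36 ± 0.066 (adjusted p = 2.03e-05), also at 8 of 8 times. PPARα and RXRα form the pair that binds fatty acid oxidation genes, and the IH medians of both lay above the normoxia medians with the ranges still overlapping. Nr1h3 went from 10.1 ± 1.63 (lowest 7.26, median 10.2, highest 14.7) to 12.02 ± 2.18 (lowest 8.13, median 11.6, highest 16.9), a change of 0.23 ± 0.067 (adjusted p = 0.00440). Pparg went from 8.84 ± 3.30 (lowest 5.70, median 7.81, highest 18.1) to 11.3 ± 4.33 (lowest 6.53, median 10.4, highest 23.9), a change of 0.33 ± 0.13 (adjusted p = 0.0294), higher at 7 of 8 times. Beside these changes, 3 of 7 macrophage markers tested in heart rose and 0 fell (sums of 159 to 446 TPM in normoxia and 239 to 549 TPM after IH), and 4 of 12 cardiomyocyte markers rose (20277 to 48737 and 26409 to 48424 TPM). Of the hepatocyte markers 3 of 9 rose (38.4 to 164 and 42.5 to 193 TPM). Of the lung epithelium markers 1 of 5 fell (246 to 2842 and 166 to 944 TPM). The summed adipocyte markers of heart had a median of 399 TPM in normoxia (90.5 to 2620) and 685 TPM after IH (78.5 to 2632), with 1 of 12 markers higher. The part of these cells in the receptor results was not tested. Ppard (0.09, adjusted p = 0.395) and Thra (0.15, adjusted p = 0.144) did not pass. On TPM as deposited, where the median of all heart genes was 0.15, Thra passed (0.27, limma adjusted p = 0.0120). With a covariate for how many genes were detected, 0 of the 6 members passed in heart (limma) and the changes were -0.11 for Ppara, -0.06 for Rxra, 0.21 for Nr1h3 and 0.54 for Pparg. The covariate itself did not overlap between the treatments in heart, as given above, so that this fit cannot separate the treatment from the covariate.

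In lung, receptors moved in both directions. Ppard went from 14.9 ± 3.41 scaled TPM (lowest 8.57, median 14.7, highest 20.4) to 18.9 ± 3.12 (lowest 13.3, median 18.6, highest 24.4), a change of 0.35 ± 0.081 (adjusted p = 0.000173), and was higher at 8 of 8 times. Rxra went from 38.9 ± 3.37 (lowest 31.6, median 39.6, highest 44.3) to 31.7 ± 9.55 (lowest 14.6, median 34.3, highest 42.8), a change of -0.35 ± 0.099 (adjusted p = 0.00151), and was lower at 8 of 8 times. The IH libraries reached much lower Rxra levels than any normoxia library, while their upper end stayed within the normoxia range. Thra went from 91.1 ± 14.0 (lowest 69.5, median 91.6, highest 121) to 80.8 ± 17.1 (lowest 54.7, median 78.4, highest 108), a change of -0.19 ± 0.076 (adjusted p = 0.0267). Nr1h3, which macrophages of the alveoli also express, went from 39.9 ± 4.97 (lowest 29.5, median 40.3, highest 52.2) to 43.3 ± 4.46 (lowest 35.0, median 43.2, highest 53.3), a change of 0.12 ± 0.048 (adjusted p = 0.0255). Ppara (0.19, adjusted p = 0.0947) and Pparg (-0.04, adjusted p = 0.656) did not pass.

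Lung was also the tissue where scaling mattered most for these values. The median of all genes was 0.21 on TPM as deposited and -0.08 after scaling, a shift of 0.28. On TPM as deposited Rxra changed by -0.06 (adjusted p = 0.641) and Thra by 0.12, so that both lost their call and Thra turned. Ppara (0.44, limma adjusted p = 0.000567) and Pparg (0.25, limma adjusted p = 0.00671) gained a call on that scale. With the covariate for genes detected, Rxra was 0.39 higher (adjusted p = 3.55e-05), Ppard 0.76 higher and Thra at 0.04. All 12 epithelial markers of the lung fell in the same libraries, from a sum of 141310 to 272640 TPM (median 176605) in normoxia to 38107 to 210538 TPM (median 152922) after IH, while 3 of 10 macrophage markers rose and 1 fell (sums of 3916 to 9767 and 5789 to 14069 TPM). Of the lymphocyte and blood markers 9 of 12 fell (sums of 23383 to 103412 and 15544 to 108046 TPM), while 6 of 11 cardiomyocyte markers (246 to 969.9 and 368 to 1194 TPM) and 3 of 11 skeletal muscle markers (21.4 to 656 and 31.6 to 1133 TPM) rose. Their part in the receptor results was not tested. Ppard in lung kept its direction under each of these settings.

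In liver only Pparg passed, which hepatocytes hold at a low level. It went from 6.26 ± 1.94 scaled TPM (lowest 3.13, median 5.66, highest 11.3) to 4.43 ± 2.01 (lowest 2.38, median 3.77, highest 11.98), a change of -0.49 ± 0.12 (adjusted p = 0.00352), and was lower at 7 of 8 times. The highest IH value belonged to the liver library that stood apart, and without it the change was -0.55 (adjusted p = 0.000238). The summed adipocyte markers of liver were 1557 to 5176 TPM in normoxia and 683 to 3433 TPM after IH, with 0 of 7 tested higher and 1 lower. In normoxia 6 of the 12 markers had means under 1 TPM in liver. The sum thus rests on the rest of the list and need not come from fat cells. The part of fat cells in the Pparg result was not tested.

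The classic liver receptors did not pass. Ppara was at 36.0 ± 17.3 scaled TPM in normoxia (lowest 20.7, median 28.3, highest 91.7) and 41.7 ± 13.3 after IH (lowest 7.89, median 40.0, highest 66.7), a difference of 0.24 (adjusted p = 0.289). Nr1i3 was at 71.6 ± 19.6 and 77.4 ± 33.0, a difference of -0.04 with an interval at 95% of -0.45 to 0.36. Hnf4a was at 142 ± 38.2 and 137 ± 52.9, a difference of -0.19 with an interval of -0.56 to 0.19. In TPM as deposited, Ppara (4.16), Nr1i3 (2.16), Nr1i2 (0.819), Nr1h4 (2.20) and Hnf4a (5.25) all had their lowest IH value in the library that stood apart. Thra, which is low in liver, had its highest value there (18.8 TPM). Without that library Nr1h3 also passed in liver, higher by 0.27 (adjusted p = 0.0125), the difference of Ppara was 0.34 (adjusted p = 0.0588), and those of Hnf4a (-0.03), Nr1i2 (-0.03), Nr1i3 (0.13) and Nr1h4 (-0.13) had adjusted p-values of 0.242 to 0.861. These intervals leave room for moderate changes of either sign.

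In kidney Ppara fell. It went from 25.0 ± 5.39 scaled TPM (lowest 17.0, median 25.4, highest 36.3) to 20.5 ± 5.33 (lowest 12.9, median 19.2, highest 31.4), a change of -0.30 ± 0.094 (adjusted p = 0.0207), and was lower at 8 of 8 times. This call was lost on TPM as deposited, without replicate 1, without replicate 2 and with the covariate for genes detected, where Ppara was at -0.20 in kidney and -0.11 in heart. In the same libraries 4 of 12 adipocyte markers (sums of 328 to 1026 TPM in normoxia and 414 to 1474 TPM after IH) and 4 of 7 lymphocyte and blood markers (2011 to 4474 and 2362 to 13046 TPM) rose, with 0 lower in either list, and their part in the kidney results was not tested. Nr1h4 was at 85.5 ± 19.8 in normoxia and 71.7 ± 21.5 after IH, a difference of -0.27 (adjusted p = 0.0663), lower at 7 of 8 times. Hnf4a (-0.09, interval -0.22 to 0.04) and Nr1i2 (-0.08, interval -0.17 to 0.01) did not pass. In cerebellum Rxra went from 4.55 ± 0.939 (lowest 3.24, median 4.18, highest 6.35) to 6.02 ± 2.36 (lowest 3.803, median 5.32, highest 14.5), a change of 0.32 ± 0.10 (adjusted p = 0.0263). Nr1h3 went from 8.22 ± 1.00 (lowest 6.66, median 8.20, highest 10.7) to 9.93 ± 2.41 (lowest 6.88, median 9.33, highest 19.7), a change of 0.24 ± 0.067 (adjusted p = 0.0118). Both were higher at 7 of 8 times. Without the cerebellum library that stood apart, Rxra (0.27) and Nr1h3 (0.20) still passed, and Thra, the main receptor of this tissue, passed as higher by 0.32 (adjusted p = 0.00814) and Pparg as lower by 0.48 (log2 -0.48, adjusted p = 0.0446). With all libraries these were 0.24 (adjusted p = 0.148) and -0.35 (adjusted p = 0.267).

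In muscle, the tissue with the highest Pparg and Ppard levels, Pparg was at 28.3 ± 8.12 scaled TPM in normoxia and 31.5 ± 11.3 after IH (0.16, adjusted p = 0.453) and Ppard at 18.4 ± 2.07 and 18.1 ± 2.07 (-0.02, interval -0.11 to 0.07). Nr1h3 differed by 0.16 (adjusted p = 0.0779), Ppara by 0.26 (adjusted p = 0.208) and Rxra by -0.07 (adjusted p = 0.201). On TPM as deposited Nr1h3 passed in muscle, at 0.26 (adjusted p = 0.0204).

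Whether the response to IH differed between tissues was tested as an interaction over all libraries together, for 93 pairs of tissues in which a member was tested. Of these, 21 passed, 8 of 15 for Rxra, 6 of 15 for Pparg, 4 of 15 for Ppara, 3 of 15 for Thra and 0 of 15 for Ppard and for Nr1h3, where 36.0% of all genes and pairs passed. For the liver and kidney receptors Hnf4a, Nr1h4 and Nr1i2, the single pair did not pass. The smallest adjusted p was that of Rxra between heart (0.36) and lung (-0.35), a difference of 0.72 ± 0.14 (SE, adjusted p = 4.12e-06). Ppara differed by 0.82 ± 0.21 between heart (0.53) and kidney (-0.30), with an adjusted p of 0.000755. Pparg differed by 0.82 ± 0.19 between heart (0.33) and liver (-0.49), with an adjusted p of 0.000224. Thra in lung differed from heart, liver and cerebellum by 0.33 to 0.44. For Ppard and Nr1h3 no pair passed, which does not show that their responses were alike. With the covariate for genes detected in each tissue, chosen after seeing the data, 14 pairs passed, and 6 of the 21 passed in the same direction. Rxra between heart and lung then turned to -0.45 (adjusted p = 0.0798) and Ppara between heart and kidney went to 0.094 (adjusted p = 0.857), while Pparg between heart and liver was 1.05 (adjusted p = 0.00149). In heart the covariate did not overlap between the treatments, so that these values cannot separate the treatment from the covariate. Without the library of lowest correlation of each tissue 29 pairs passed, and leaving out replicate numbers gave 6 to 31.

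**Figure D3:**
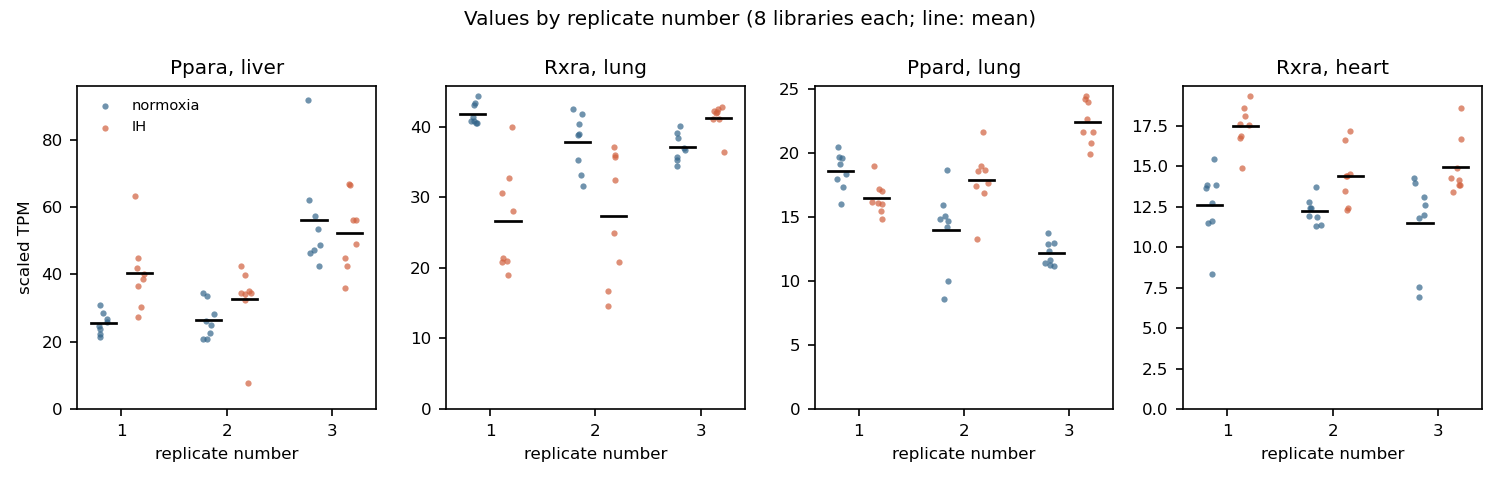
Scaled TPM of Ppara in liver, Rxra in lung, Ppard in lung and Rxra in heart by treatment and replicate number, with 8 libraries, 1 per time, in each column. In lung the change of Rxra is -0.69 and -0.56 in replicates 1 and 2 and 0.15 in replicate 3, while in heart all 3 replicate numbers are higher after IH.

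Replicate numbers separated some of these values. In lung Rxra changed by -0.69 and -0.56 in replicates 1 and 2 and by 0.15 in replicate 3. Ppard in lung changed by -0.18, 0.34 and 0.85. The Rxra rise in replicate 3 alone (adjusted p = 0.00383) and the Ppard fall in replicate 1 alone (adjusted p = 0.0122) passed against the pooled direction, and without replicate 3 Ppard was at 0.095 (adjusted p = 0.352). The pooled lung values therefore average unlike replicates. In heart Rxra was higher by 0.48, 0.23 and 0.41 and Ppara by 0.90, 0.25 and 0.46, with the same sign in each. In liver the normoxia level of Ppara was 25.5 and 26.4 scaled TPM in replicates 1 and 2 and 56.2 in replicate 3 (n = 8 each), against 40.4, 32.6 and 52.2 after IH, and liver Rxra was highest in replicate 3 in both treatments (97.2 and 105.7). The labels name no batch. Of the 12 changes that passed, counted in their own direction, Nr1h3 and Rxra in heart, Ppard in lung and Pparg in liver passed in 11 of 12 alternatives, Ppara in heart in 10, Nr1h3 in cerebellum and lung, Pparg in heart and Rxra in lung in 9, and Ppara in kidney, Rxra in cerebellum and Thra in lung in 8.

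The relatives of the members gave a mixed account. Rxrb, the RXR with the broadest tissue range, rose in cerebellum from 31.7 ± 11.2 to 50.3 ± 9.45 scaled TPM, a change of 0.71 ± 0.11 (adjusted p = 2.05e-05), by 1.08 and 1.01 in replicates 1 and 2 and 0.05 in replicate 3, and by 0.75 without the library that stood apart. It rose by 0.09 in lung (adjusted p = 0.00514) and fell in muscle by 0.16 (log2 -0.16, adjusted p = 0.00239). Rxrg, the RXR of muscle and heart, was at 45.7 ± 7.09 and 45.0 ± 5.28 in muscle and did not pass in any of the 4 tissues where it was tested. Nr1h2 (LXRβ) rose in lung by 0.20 (adjusted p = 8.44e-05), and Thrb, the thyroid hormone receptor of liver, rose in lung by 0.19 (adjusted p = 0.00871) and in muscle by 0.19 (adjusted p = 0.00132). Over the whole list of partners and close relatives, the numbers higher and lower were 3 and 1 of 9 in cerebellum, 0 and 0 of 9 in heart, 2 and 1 of 8 in kidney, 1 and 0 of 9 in liver, 4 and 1 of 7 in lung and 1 and 2 of 8 in muscle. Among all genes 15% passed in cerebellum, 45.2% in heart, 19.8% in kidney, 24.2% in liver, 70.4% in lung and 10.4% in muscle. Of 14 coactivators and corepressors, which carry the receptors' effect to chromatin, 5 rose in heart, 7 rose and 1 fell in lung, 5 rose and 1 fell in muscle, 2 rose in kidney, 3 fell in liver and 0 passed in cerebellum. The share of coregulators that passed was above that of all genes in muscle and below it in the other 5 tissues, a difference that was not tested.

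The targets of the receptors were taken from lists of well-known regulated genes. In liver more targets fell than rose after IH on 6 of 7 lists, while 1 of the 10 receptors passed. Of 24 PPARα targets tested, 10 fell and 0 rose, with a median of -0.38. Among 20 PXR and CAR targets 9 fell and 0 rose (median -0.56), and among 20 HNF4α targets 7 fell and 0 rose (median -0.44). LXR targets had 6 lower and 2 higher of 15 (median -0.27), FXR targets 4 lower and 0 higher of 14 (median -0.37), and thyroid hormone targets 4 lower and 1 higher of 11 (median -0.19). Of 11 PPARγ targets 1 rose and 1 fell. Of all liver genes 24.2% passed in either direction. The PPARγ list was below that share and the other lists were above it, the FXR list by little, a difference that was not tested. The median of all liver genes was -0.01. Without the library that stood apart the medians were -0.37, -0.41, -0.28, -0.13, -0.27 and -0.18 in the order given, all still below that value. The numbers lower and higher were then 14 and 0 for PPARα, 9 and 1 for PXR and CAR and 10 and 0 for HNF4α. They were 6 and 2 for LXR, 5 and 0 for FXR, 3 and 2 for thyroid hormone and 1 and 2 for PPARγ.

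Examples from these liver lists, chosen after their values were seen, are Gsta1, a glutathione transferase of drug detoxification, which went from 28.8 to 11.0 scaled TPM (log2 -1.42, and -1.31 without the library that stood apart), and Apob, the protein of very low density lipoprotein, from 661 to 288.1 (log2 -1.44, and -1.28 without it). Fasn, fatty acid synthase, went from 160 to 60.4 (log2 -1.45, and -1.51 without it). In replicate 3 alone Apob was at 0.16 and Fasn at -0.05, against -1.91 and -2.27 in replicate 1 and -2.60 and -2.06 in replicate 2. Some listed targets are also hepatocyte markers, Alb and Apob among them, and 5 of 12 hepatocyte markers fell, with a summed level of 59133 to 105673 TPM (median 69573) in normoxia and 1377 to 80576 TPM (median 47849) after IH. In the same tissue all 4 kidney tubule markers tested rose, from sums of 1.29 to 124 TPM to 43.5 to 459 TPM, and 8 of 11 cardiomyocyte markers rose. Of the lymphocyte and blood markers 5 of 7 rose and 1 fell (sums of 1159 to 2527 and 770 to 18118 TPM). The part of these in the target results was not tested. By the rule for naming targets, Fabp4 rose in liver from 13.49 to 65.8 scaled TPM (0.93, adjusted p = 0.00430, highest IH library 1045, and 0.70 without the library that stood apart) and Acsl1 fell from 295 to 231 (log2 -0.44, adjusted p = 0.0208), both targets of PPARγ. In replicates 1, 2 and 3 alone Fabp4 was at 1.05, 1.70 and 0.02 and Acsl1 at -0.76, -0.62 and 0.04.

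In heart more targets rose than fell on 6 of 7 lists, beside the 4 receptors that were higher. PPARα targets had 8 higher and 0 lower of 19 (median 0.19), PPARγ targets 6 and 0 of 15 (0.41), LXR targets 8 and 0 of 13 (0.29) and thyroid hormone targets 7 and 1 of 18 (0.20), against a median of 0.04 over all genes. The PXR and CAR list had 4 higher and 1 lower of 9, FXR 1 and 0 of 4 and HNF4α 1 and 2 of 9. Of all heart genes 45.2% passed in either direction. The shares of the PPARα, PPARγ, thyroid hormone, FXR and HNF4α lists lay below that, and those of the LXR list and of the PXR and CAR list above it. Named by the rule, Acsl1, which activates fatty acids, rose from 97.3 to 139 scaled TPM (0.51, adjusted p = 1.43e-05), Cd36, the fatty acid importer, from 330 to 431 (0.41) and Lpl, the lipase that frees them from lipoproteins, from 531 to 638 (0.28). The oxidation enzymes Hadha (231 to 293, 0.36) and Cpt1a (9.41 to 11.7, 0.30) and the lipid droplet protein Plin2 (39.6 to 47.9, 0.27) also rose. Of the LXR list, Pltp (0.29), Smpdl3a (0.27) and Apoe (0.30) rose. Each of these 9 genes had overlapping groups. With the covariate for genes detected, 0 targets of any of these lists passed in heart except 1 of the PXR and CAR list. That covariate did not overlap between the treatments in heart, so that this fit cannot separate the treatment from the covariate.

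**Figure D4:**
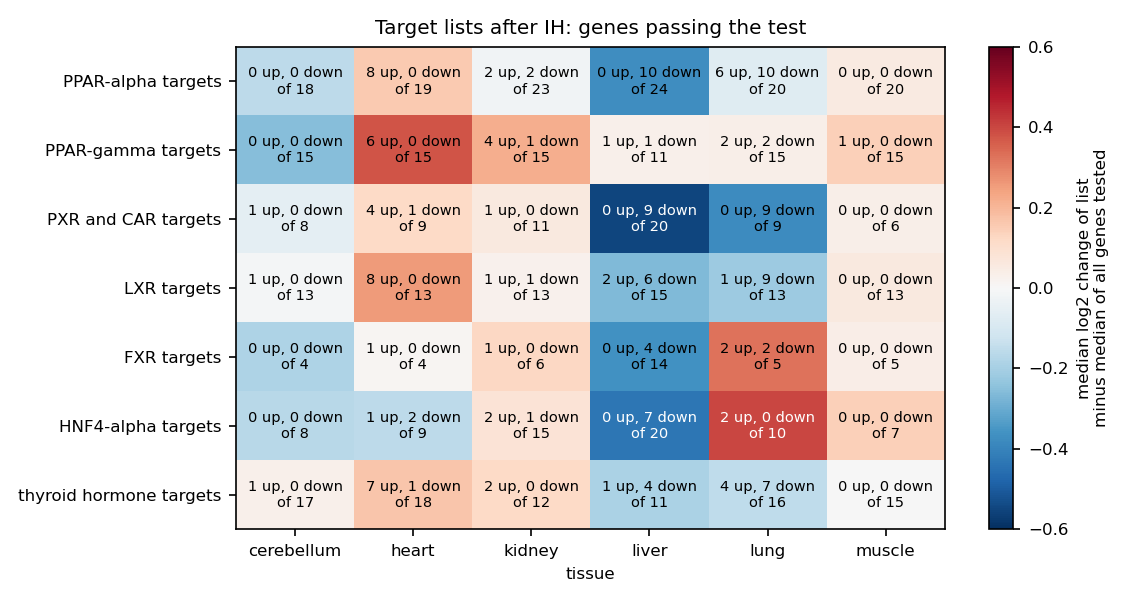
Median log2 change after IH of 7 lists of receptor targets in 6 tissues, minus the median of all genes tested in that tissue, with the numbers of targets that passed as higher and as lower, of those tested. Liver has 0 to 2 higher and 1 to 10 lower per list, heart mostly higher targets, and muscle at most 1 target that passed in any list.

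In lung, where 70.4% of all genes passed, PXR and CAR targets had 9 lower of 9 (median -0.45), LXR targets 9 lower and 1 higher of 13 (-0.29), PPARα targets 10 lower and 6 higher of 20, thyroid hormone targets 7 lower and 4 higher of 16, PPARγ targets 2 and 2 of 15, FXR targets 2 and 2 of 5, and HNF4α targets 2 higher of 10. Named LXR targets were Smpdl3a (-0.45), Pltp (-0.63) and Apoe (-0.65), which fell while Nr1h3 itself was 0.12 higher. In replicates 1, 2 and 3 alone Smpdl3a was at -0.53, -0.54 and -0.32, Pltp at -1.07, -0.80 and -0.06 and Apoe at -0.81, -0.93 and -0.24. The Nr1h3 call in lung was lost when replicate 1, 2 or 3 was left out. With the covariate for genes detected Pltp passed as higher (0.21, limma adjusted p = 0.0355), while Smpdl3a (-0.12) and Apoe (0.19) did not pass. Named thyroid hormone targets were Slc16a10, a thyroid hormone transporter, which rose by 0.56, and Me1 (-0.62) and Fasn (-0.80), which fell. In replicates 1, 2 and 3 alone Slc16a10 was at 0.20, 0.68 and 0.78, Me1 at -0.77, -0.96 and -0.18 and Fasn at -1.18, -1.33 and 0.06. Under the covariate for genes detected the counts turned, to 8 higher and 1 lower for PPARα, 3 and 0 for PXR and CAR, 6 and 1 for LXR and 8 and 1 for thyroid hormone targets. In kidney, where 19.8% of all genes passed, 2 PPARα targets rose and 2 fell of 23. Hadhb rose from 138 to 172 scaled TPM (0.29), Acot2 rose by 0.25 and Acadm, the medium-chain dehydrogenase, fell from 793 to 633 (log2 -0.34). In replicates 1, 2 and 3 alone Hadhb was at 0.24, 0.22 and 0.39 and Acot2 at 0.24, -0.008 and 0.52. Acadm was at -0.07, -0.47 and -0.49. The other kidney lists had 4 and 1 of 15 for PPARγ, 1 and 0 of 11 for PXR and CAR, 1 and 1 of 13 for LXR, 1 and 0 of 6 for FXR, 2 and 1 of 15 for HNF4α and 2 and 0 of 12 for thyroid hormone. In cerebellum 1 target rose in each of the LXR (Apoe, 0.29, adjusted p = 0.0329), PXR and CAR, and thyroid hormone lists, and in muscle 1 PPARγ target rose, with no other target passing in either tissue (limma). Without the cerebellum library that stood apart, 5 PPARα, 1 PPARγ, 2 LXR and 2 thyroid hormone targets fell there. In that fit 1 LXR target, 1 PXR and CAR target and 2 thyroid hormone targets rose.

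Daily rhythm was tested within each tissue and treatment as a cosine of 24 hours on log2 values, and the amplitude is given on that scale, as the distance from the mean to the peak. Ppard, the fatty acid receptor of muscle and other tissues, had the widest swing of the 10, and only in kidney and liver did it pass. In kidney under normoxia its 3 libraries at 22:30 were at 32.001, 30.9 and 21.6 scaled TPM and those at 10:30 at 5.87, 4.56 and 6.20. The means of 28.1 and 5.55 differ 5.08-fold. These times were picked as the highest and lowest means of the same values, so that their lack of overlap is no test. The amplitude was 0.98 ± 0.098 (SE) with a peak at 22:57 (adjusted p = 9.71e-07). After IH the libraries at 22:30 were at 40.1, 24.5 and 35.2 and those at 7:30 at 5.19, 3.94 and 8.86, with an amplitude of 1.18 ± 0.10 and a peak at 22:48 (adjusted p = 9.77e-08). Ppard thus peaked near the labelled 22:30 in kidney in both treatments.

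In liver Ppard also peaked near the labelled 22:30, at a lower level. Under normoxia the libraries at 22:30 were at 11.3, 13.48 and 16.2 scaled TPM and those at 7:30 at 2.20, 2.50 and 2.30, an amplitude of 0.93 ± 0.13 with a peak at 21:54 (adjusted p = 4.75e-05). After IH they were at 9.58, 11.96 and 12.5 at 22:30 and at 1.95, 2.53 and 3.23 at 4:30, an amplitude of 0.84 ± 0.17 with a peak at 21:59 (adjusted p = 0.0127). In the other 4 tissues its amplitude was between 0.04 and 0.17 and did not pass in either treatment. In muscle the highest and lowest means of the 8 times were 19.8 and 16.4 in normoxia. So the same gene swung more than 4-fold over the day in 2 organs and had a nearly level time course in muscle.

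**Figure D5:**
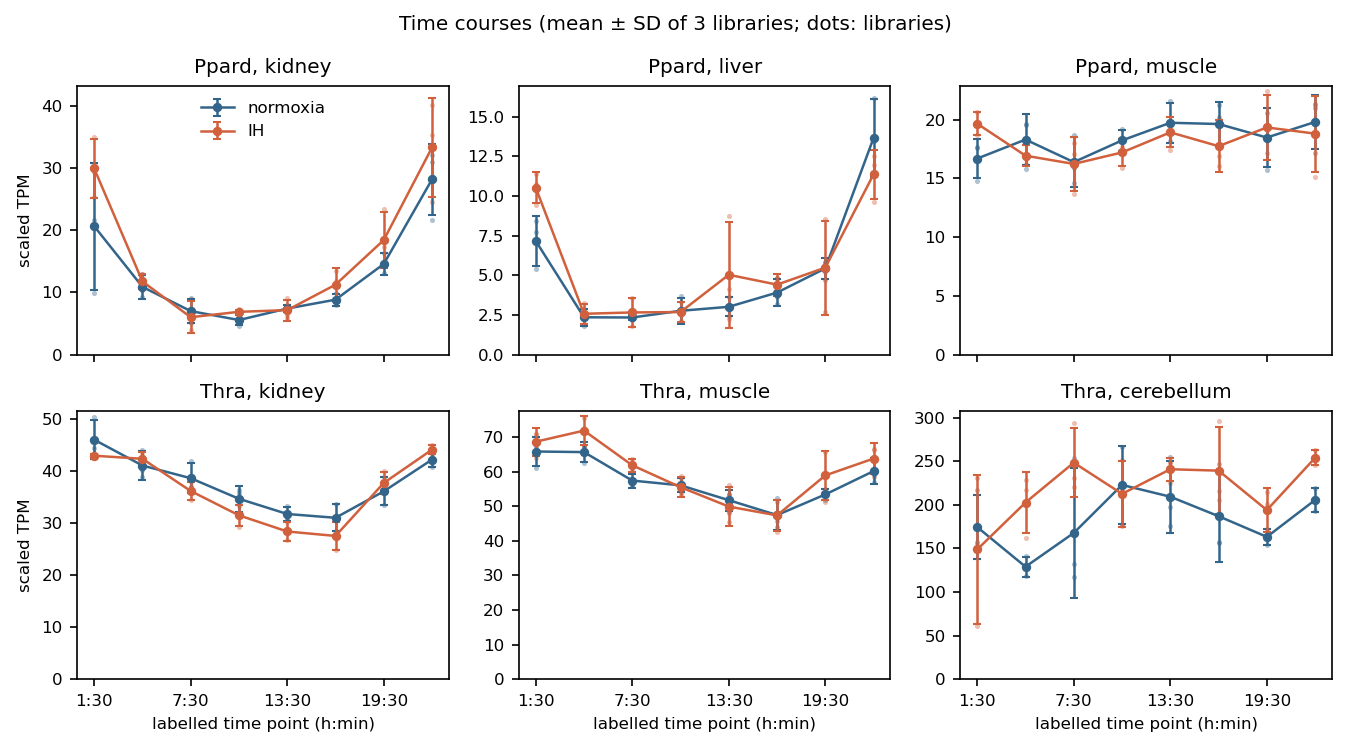
Scaled TPM of Ppard in kidney, liver and muscle and of Thra in kidney, muscle and cerebellum against labelled time, as mean ± SD of 3 libraries for normoxia and IH. Ppard peaks at 22:30 in kidney and liver in both treatments and is nearly level in muscle, while Thra peaks between 22:30 and 4:30 in kidney and muscle.

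Thra was the member that passed in the most tissues, with a small amplitude. It passed in kidney (0.26 in normoxia and 0.34 after IH, peaks at 2:10 and 1:36), muscle (0.21 and 0.27, peaks at 3:14 and 2:48) and lung (0.23 and 0.34, peaks at 1:18 and 0:32) in both treatments, in liver under normoxia (0.42, peak at 1:49) and in heart after IH (0.25, peak at 1:27). In kidney under normoxia the libraries at 1:30 were at 43.3, 50.4 and 44.5 scaled TPM and those at 16:30 at 33.6, 28.5 and 31.0. In muscle under normoxia the libraries at 1:30 were at 67.2, 61.2 and 69.4 and those at 16:30 at 52.5, 45.8 and 44.2. The peaks of Thra thus lay between 0:32 and 3:14 in each of the tissues where it passed. Nr1d1 (REV-ERBα), the clock repressor whose gene overlaps the end of Thra on the other strand, passed in these 5 tissues in both treatments with amplitudes of 1.5 to 2.4 and peaks between 5:18 and 7:27. In cerebellum, where Thra is highest, neither gene passed (Thra 0.19 and 0.22, Nr1d1 0.21 and 0.53). Without the cerebellum library that stood apart the amplitude of Thra after IH was 0.067 and that of Nr1d1 was 0.50. Reads of the shared 263 exonic bases were not separated here.

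In liver under normoxia, Hnf4a, Nr1i2, Nr1i3 and Nr1h4 peaked between the labelled times 13:05 and 15:44. Hnf4a had an amplitude of 0.32 with a peak at 13:05, with libraries of 204, 161 and 259 scaled TPM at 13:30 and 98.6, 114 and 122 at 1:30. Nr1i2 had 0.21 with a peak at 13:23, with 33.2, 36.0 and 33.9 at 13:30 and 24.7, 25.7 and 23.8 at 1:30. For both genes these times were picked as the highest and lowest means of the same values, so that their lack of overlap is no test. Nr1i3 had 0.34 with a peak at 15:31 and Nr1h4 0.25 with a peak at 15:44 (means of 77.9 at 16:30 and 48.6 at 4:30, n = 3 libraries each). Ppara, often described as a clock output in liver, had an amplitude of 0.22 ± 0.16 there and did not pass (adjusted p = 0.616), in the tissue where its replicates lay apart. It passed under normoxia in muscle (0.50, peak at 9:49, means of 8.21 at 7:30 and 3.67 at 1:30) and kidney (0.30, peak at 9:07). Nr1h4 passed in kidney under normoxia (0.31, peak at 10:56), Nr1h3 in lung under normoxia (0.18, peak at 16:55) and in muscle after IH (0.22, peak at 15:42, adjusted p = 0.0438), and Nr1i2 in kidney after IH (0.17, peak at 2:45). The Nr1h3 rhythm of muscle passed in 1 of 7 alternatives and that of lung in 3 of 7. Pparg and Rxra did not pass in any tissue or treatment. With the replicate number as a block, Ppara (adjusted p = 0.0342) and Rxra (amplitude 0.24, adjusted p = 0.00218) passed in liver under normoxia.

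Counted by tissue, members with a rhythm under normoxia and after IH were 6 and 1 of 10 in liver (17.7% and 2.63% of all genes tested), 4 and 3 of 9 in kidney (21.0% and 5.74%), 2 and 1 of 6 in lung (9.15% and 4.65%), 2 and 2 of 6 in muscle (6.38% and 8.83%), 0 and 1 of 6 in heart (0.626% and 4.17%) and 0 and 0 of 6 in cerebellum (0% and 0.0134%). At an unadjusted p under 0.05 limma gave 1 and 1 members in heart and 2 and 0 in cerebellum. Without the liver library that stood apart, 3 members passed in liver after IH, Ppard (0.92), Thra (0.39) and Nr1i2 (0.25), and without the heart library of lowest correlation Thra passed in heart under normoxia (0.28, adjusted p = 0.0151).

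The fall in the count of rhythmic members in liver is not a test of a lost rhythm. When the rhythm itself was compared between treatments, 0 members passed in any tissue, and 0% of all genes passed in each of the 6 tissues (limma). At an unadjusted p under 0.05 there were 2 members in muscle, Nr1h3 and Ppara, and 0 in the other 5 tissues, beside 580 genes of all tested in muscle, 683 in cerebellum, 328 in kidney, 289 in lung, 86 in liver and 72 in heart. The difference of Ppard between treatments had an adjusted p of 0.981 in kidney. Ppard in kidney in both treatments and in liver under normoxia, and Thra in kidney in both treatments, in liver under normoxia and in muscle after IH, passed in all 7 alternatives of the rhythm test.

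Over the 96 means of tissue, treatment and time, the genes whose log2 pattern was most like that of each member were found among 14380 genes. For Hnf4a these were Glyat (Pearson r = 0.998), Fbp1 and F13b, and for Nr1h4 they were Hnf4a itself (0.997), Fbp1 and F13b, so that these 2 receptors shared their nearest genes. Nr1i3 lay nearest to Slc17a2 (0.998), Urad and Hao1, and Nr1i2 to Akr1c12 (0.995), Mbl1 and Kynu. Ppara lay nearest to Echdc3 (0.971), Acad11 and Slc40a1, Pparg to Slc22a3 (0.971), Klhl21 and Prr33, Rxra to Acp5 (0.959), Adipor2 and Stbd1, and Nr1h3 to Rab32 (0.967), Tmem37 and Osgin1. For Thra they were Tspyl1 (0.978), Cwc27 and Zfp580. Ppard had the least similar neighbours, Taf6 (0.830), Tmem161a and Tjap1. The 96 means share 6 tissues, so that these values mostly describe the order of tissues and are given without a test.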

How the data were processed

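The authors quantified reads with Kallisto against Ensembl mouse transcripts and deposited TPM per gene and library, and per the labels the build was mm10. These TPM keep no depth, and the strand setting is not given in the sources used here. Comparisons that the study fitted itself were not used. Within each tissue TPM were scaled by their median ratio to a geometric-mean library, and log2(TPM + 0.5) was tested with limma 3.58.1 (R 4.3.3, intensity trend) in genes averaging 1 TPM or more, with treatment as the only term, 2-sided, Benjamini-Hochberg adjusted over all genes of a tissue at 0.05. Rhythm was a cosine of 24 hours tested by the moderated F test. Levels between tissues used TPM as deposited, over the normoxia libraries. Tables and figures were made with Python 3.11.15, numpy 2.4.6, pandas 2.3.3 and matplotlib 3.10.9.

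The members, the lists of targets, relatives, coregulators and cell type markers, and the tests were chosen with earlier results of these data known. Named were all members, Rxrb, Rxrg, Nr1h2, Thrb and Nr1d1, in each tissue where a receptor passed the 3 targets of smallest adjusted p with a mean of at least 5 TPM, and for each member the 3 genes of highest correlation. Alternatives were other scaling, pseudocounts, filters and terms, a rank test, and leaving out replicate numbers. Some alternatives were chosen after seeing the data, namely each replicate number alone, genes detected as a term for differences between tissues and, for rhythm and for tissue differences in the response, dropping the least correlated library of each tissue. The scripts were tested on simulated data. Deviations of libraries with the same replicate number had median correlations from -0.136 in lung to 0.224 in liver, and in every tissue some of the 24 pairs were below 0.1, so they were not treated as paired. In liver 16 and in muscle 12 of the 24 pairs were above 0.1, so that libraries there may share a replicate effect. Fits with the replicate number as a block are given as an alternative.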

Additional observations from a re-analysis of the deposited data

Results flagged for a closer look

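Differences in the response to IH between tissues, by the interaction test over all libraries together, were the results singled out for a closer look. The adjusted p-values of limma ran from 4.12e-06 to 0.0359, and each value is the first response minus the second on the log2 scale.

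For Rxra, heart minus lung was 0.7169, cerebellum minus lung 0.6771, heart minus liver 0.5311, cerebellum minus liver 0.4912, heart minus muscle 0.4279, cerebellum minus muscle 0.388, kidney minus lung 0.3645 and heart minus kidney 0.3524. The Rxra change was above 0 in heart and cerebellum and below 0 in lung and liver, and only those of heart, cerebellum and lung passed on their own. With a covariate for genes detected in each tissue, Rxra in heart minus lung was -0.4451, cerebellum minus lung -0.09586, kidney minus lung -0.273 and heart minus kidney -0.172, so that these 4 turned, and heart minus liver was 0.19 and heart minus muscle 0.0069. Cerebellum minus liver (0.54) and cerebellum minus muscle (0.36) still passed. In heart the covariate did not overlap between the treatments, so that values with heart, here and below, cannot separate the treatment from the covariate.

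For Pparg, heart minus liver was 0.8156, cerebellum minus heart -0.6787, kidney minus liver 0.6703, liver minus muscle -0.6459, cerebellum minus kidney -0.5334 and cerebellum minus muscle -0.5089. The fall in liver and the rise in heart, which both passed on their own, stood on either side. With that covariate heart minus liver (1.05), kidney minus liver (0.65), liver minus muscle (-0.69) and cerebellum minus heart (-0.72) still passed.

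For Ppara, heart minus kidney was 0.8225, cerebellum minus heart -0.6464, kidney minus muscle -0.5596 and kidney minus liver -0.5356. None of these 4 passed with the covariate (limma), where heart minus kidney was 0.094 and cerebellum minus heart turned to 0.11. For Thra, liver minus lung was 0.4357, cerebellum minus lung 0.4288 and heart minus lung 0.3347. All 3 of the Thra differences involve lung, where its change was -0.19 after scaling and 0.12 on TPM as deposited, and heart minus lung turned to -0.31 with the covariate.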

How the results depend on the processing

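Numbers of members that passed after IH were 2 in cerebellum, 4 in heart, 1 in kidney, 1 in liver, 4 in lung and 0 in muscle. On TPM as deposited they were 1 in cerebellum, 0 in kidney and 1 in muscle, and with time as a further term 2 in kidney and 1 in muscle. On TPM as deposited heart also gained Thra, and lung gained Ppara and Pparg and lost Rxra and Thra. Cerebellum gave 1 with no filter on low values. With genes detected as a covariate there were 1 in cerebellum, 0 in heart and 0 in kidney. In heart that covariate did not overlap between the treatments. Without the library of lowest correlation there were 4 in cerebellum and 2 in liver. Without 1 replicate number the ranges were 0 to 5 in cerebellum, 2 to 4 in heart, 0 to 1 in kidney, 0 to 2 in liver and 2 to 3 in lung. With a 1.5-fold change, 0 members passed, against 1 each in heart, liver and lung on TPM as deposited, 2 in lung with genes detected as a term, and 0 to 1 in cerebellum, heart, liver and lung without 1 replicate number. Pairs of tissues that passed were 21, 23 with the replicate block and 6 to 31 without 1 replicate number, and pairs of levels 131, 131 with the block and 124 to 129 without 1 replicate number. Under the replicate block the numbers after IH were again 2, 4, 1, 1, 4 and 0, members with a rhythm in liver under normoxia were 8 in place of 6, the other numbers with a rhythm were those of the fit without it, and 0 rhythms differed between treatments. Rhythm in heart after IH passed for 0 members on TPM as deposited, logged or not, and for 0 to 1 without 1 replicate number, in heart under normoxia for 1 without the library of lowest correlation, 1 by the rank test and 0 to 1, in liver after IH for 3 without that library and 0 to 1, in liver under normoxia for 2 on TPM not logged and 3 to 6, in lung after IH for 2 on TPM not logged and 0 to 1, in lung under normoxia for 0 on TPM as deposited, logged or not, and 0 to 1, in muscle after IH for 1 on TPM as deposited, logged or not, 1 with a filter on the maximum, 1 without that library and 1 to 1, in muscle under normoxia for 0 on TPM as deposited, logged or not, 1 by the rank test and 1 to 2, and in kidney after IH for 2 to 3. These directions turned. With genes detected as a term, Ppara in heart was -0.11, Rxra in heart -0.056, Rxra in lung 0.39, Pparg in lung 0.31 and Thra in lung 0.036. Among responses, with that term in each tissue (14 pairs passed), Ppara was 0.115 for cerebellum minus heart, Rxra -0.0959 for cerebellum minus lung, -0.172 for heart minus kidney, -0.445 for heart minus lung, -0.273 for kidney minus lung, -0.636 for liver minus lung and 0.452 for lung minus muscle, and Thra -0.306 for heart minus lung. On TPM as deposited, Pparg in lung was 0.25, Thra in lung 0.12 and the response of Nr1h3 in liver minus lung -0.39. In replicate 3 alone, Ppara in kidney was 0.0042, Pparg in lung 0.29 and Rxra in lung 0.15, and in replicate 1 alone Ppard in lung was -0.18. Levels scaled by the median of ratios over all normoxia libraries gave Hnf4a -0.29 and Nr1h4 -0.37 for kidney minus liver, Nr1h3 -0.22 and Thra -0.32 for lung minus muscle, Nr1i3 -0.040 for cerebellum minus heart, Ppard -0.42 for cerebellum minus liver, 0.60 for heart minus lung and 0.45 for kidney minus lung, Pparg 1.01 for heart minus lung and 0.95 for liver minus lung, Rxra 0.47 for kidney minus lung, and Thra 0.42 for heart minus kidney and 0.039 for heart minus lung. Without 1 replicate number, Ppara ran from -0.75 to 0.042 for kidney minus liver. The cause was not tested. Of single values, 561 changes after IH kept direction and call, 46 lost and 22 gained it, and 11 turned. Those kept include changes that passed neither in the main fit nor in the alternative. The 12 changes that passed did so, in their own direction, in 8 to 11 of 12 alternatives, as given above.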
